A study of Homo sapiens with 2 samples.

Results

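The collagen chains described here are the genes measured by single-gene probe sets whose symbol is COL, a number, A and a number, such as COL4A1. Antisense genes and pseudogenes were left out. By that rule 43 chain genes with 112 probe sets were found among the 19775 genes on the arrays. COL17A1, the remaining coding gene of that naming pattern in the RefSeq annotation, was not analysed here. Biotin-labelled total RNA of 2 human lines was measured on Affymetrix arrays, 1 for each line. The VHL-restored line was derived from 786-O and holds a functional VHL allele, and 786-O is a renal cell carcinoma line with a mutated VHL allele. The labels name no drug, infection or oxygen setting for either sample, although the series belongs to a study of the virus EMCV. How the allele was introduced and whether that line is 1 clone is not stated in the labels.

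Collagens are extracellular proteins built from alpha chains that wind into a triple helix. Fibrillar collagens form the cables of connective tissue, type IV collagen forms the sheet of basement membranes under kidney tubules and vessels, and type VI forms beaded filaments between the other matrix components. The chains are hydroxylated on proline and lysine in the endoplasmic reticulum, trimmed outside the cell and cross-linked by lysyl oxidases. The VHL protein is best known for recognising HIF alpha subunits, which are then ubiquitinated and degraded, and it is also known to bind fibronectin and collagen IV.

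Values are intensities in arbitrary units on a linear scale. A difference is the log2 of the intensity plus a pseudocount of 16 in VHL-restored cells, minus the same quantity in 786-O cells. It is positive where the array of VHL-restored cells was the higher. Folds use the same scale and come out too small for dim genes. Each gene was read from the brightest of its probe sets, by the mean of log2 values, and counted as measured where the higher array exceeded 22.3, the median of all values on both arrays, called the floor. No replicate of either array exists here, so no test or p-value is given, and precision is limited by the number of arrays. The only spread available was that between probe sets of a gene, with an SD of 0.328 log2 units over 6436 genes, which covers probes and not cultures. In bulk RNA, fewer cells of a type and less RNA per cell cannot be told apart.

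The arrays were close to each other, with medians of 22.58 in VHL-restored cells and 21.97 in 786-O over 54613 probe sets and a Pearson r of 0.983 between log2 values; that r runs across probe sets, not across replicates. VHL gave 15.96 in VHL-restored cells and 28.85 in 786-O on its brighter probe set, and 7.96 and 6.32 on the other, so the gene did not check the labels and each direction rests on them. Markers listed for clear-cell renal tubule were present on both arrays, 10 of the 10 with a probe set being measured. Among them were PAX8 at 1068 in VHL-restored cells and 1521 in 786-O, and KRT19 at 930 in VHL-restored cells and 472 in 786-O. None of the 10 was 2-fold apart on the probe set used. The 8 probe sets of PAX8 differed by -1.08 to -0.29, and the 6 of CDH6 by -0.21 to 0.55. The 10 markers summed to 24497 in VHL-restored cells and 25344 in 786-O. The 10 include NNMT and VIM, and VIM alone gave 12498 in VHL-restored cells and 13034 in 786-O of those sums. Of 8 fibroblast and pericyte markers, PDGFRA, PDGFRB, DCN and FAP were below the floor on both arrays. ACTA2 gave 105 in VHL-restored cells and 136 in 786-O, and RGS5 gave 42.3 and 60.9. In the same order THY1 gave 50.6 and 41.3, and LUM gave 37.1 and 5.64. The summed intensity of the 8 was 303.9 in VHL-restored cells and 301.1 in 786-O, with single markers going both ways. PTPRC, CD3E, CD14 and ITGAM were below the floor among the leukocyte markers, where LAPTM5 gave 292 in VHL-restored cells and 25.9 in 786-O and LCP1 gave 66.1 in VHL-restored cells and 908 in 786-O. The 6 leukocyte markers with a probe set summed to 425 in VHL-restored cells and 992 in 786-O. The 7 endothelial ones summed to 154 in VHL-restored cells and 136 in 786-O. Of these CDH5, KDR and TIE1 were below the floor, and PECAM1, VWF, TEK and CLDN5 gave at most 35.2 on either array. The part of other cell types in the collagen differences was not tested.

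The 3 stretches of DNA in front of the chains are shown because the first is shared by both main type IV chains, which differed unequally, and the others belong to the chains COL6A3, higher in VHL-restored cells, and COL12A1, lower in VHL-restored cells on each of its probe sets above the floor. They are from RefSeq on GRCh38.p14, 5′ to 3′. The first, chr13:110307158-110307283 on the plus strand, is the whole of the 126 bases between the annotated starts of COL4A1 and COL4A2, which are read in opposite directions. The others are the 250 bases before the start of COL6A3 (chr2:237414165-237414414, minus strand) and of COL12A1 (chr6:75206054-75206303, minus strand). Capitals mark ACGTG or GCGTG on either strand, the core to which HIF binds. Of these ACGTG, but not GCGTG, also lies in CACGTG, the E-box.
COL4A1-COL4A2: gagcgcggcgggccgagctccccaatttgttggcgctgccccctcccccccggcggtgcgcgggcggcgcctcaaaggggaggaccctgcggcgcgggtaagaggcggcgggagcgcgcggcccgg
COL6A3: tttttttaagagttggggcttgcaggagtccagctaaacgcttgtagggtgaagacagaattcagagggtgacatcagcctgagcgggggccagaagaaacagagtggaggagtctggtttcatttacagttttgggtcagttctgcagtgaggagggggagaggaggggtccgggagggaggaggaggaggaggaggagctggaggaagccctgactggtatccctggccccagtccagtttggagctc
COL12A1: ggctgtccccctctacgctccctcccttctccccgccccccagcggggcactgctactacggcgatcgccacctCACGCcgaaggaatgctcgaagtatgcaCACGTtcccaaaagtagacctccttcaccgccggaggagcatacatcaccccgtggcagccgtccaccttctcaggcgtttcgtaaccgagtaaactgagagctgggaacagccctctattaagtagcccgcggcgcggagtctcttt
The COL12A1 stretch holds 2 matches, and the other stretches hold 0. The 300-base window of COL4A2, which runs on past the start of COL4A1, holds 1 match, outside the shared stretch and upstream of it, and that of COL4A1 holds 0. Over the 300-base windows from 250 bases before to 50 bases after a start, 17 of the 31 chains with a window held a match in at least 1 window (54.8%), against 52.4% of 27305 genes. Among measured chains 11 of 18 held one (61.1%), and among chains not measured 6 of 13 (46.2%). COL6A1, COL8A1 and COL14A1, all at least 2-fold apart, had no window. Of chains with differences next to 0, COL16A1 and COL5A1 held a match and COL5A3 did not. These are short letter matches and describe the sequence alone.

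Of the 43 chains, 23 were measured and 20 were below the floor on the probe set used, with no other probe set of theirs above it. At least 2-fold apart were 4 of the 23, beside 3.72% of the 13291 measured genes. COL14A1, COL6A1 and COL6A3 were at least 2-fold higher in VHL-restored cells, where 1.54% of measured genes were, and COL8A1 was at least 2-fold lower, where 2.18% were. At 1.5-fold the same 3 were higher, beside 6.25% of measured genes, and 4 were lower, beside 6.55%, with COL12A1, COL4A2 and COL18A1 joining COL8A1. The direction was mixed, with 14 measured chains higher and 9 lower in VHL-restored cells, or 60.9% higher, beside 56.8% higher and 41.8% lower over all measured genes. Their median difference was 0.07, beside a median of 0.05 and an SD of 0.45 over all measured genes, and they ran from -1.19 for COL8A1 to 1.57 for COL6A1 among chains above the floor on both arrays. Over all 43 chains without a floor 20 were higher and 22 lower, with a median of -0.01, beside a median of 0.03 over all 19775 genes. Measured chains had to exceed the floor on 1 array only, so the 23 do not stand for the family. COL14A1 and COL23A1, among the 14 higher, exceeded it on the array of VHL-restored cells alone, so their direction followed from the filter.

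**Figure D1:**
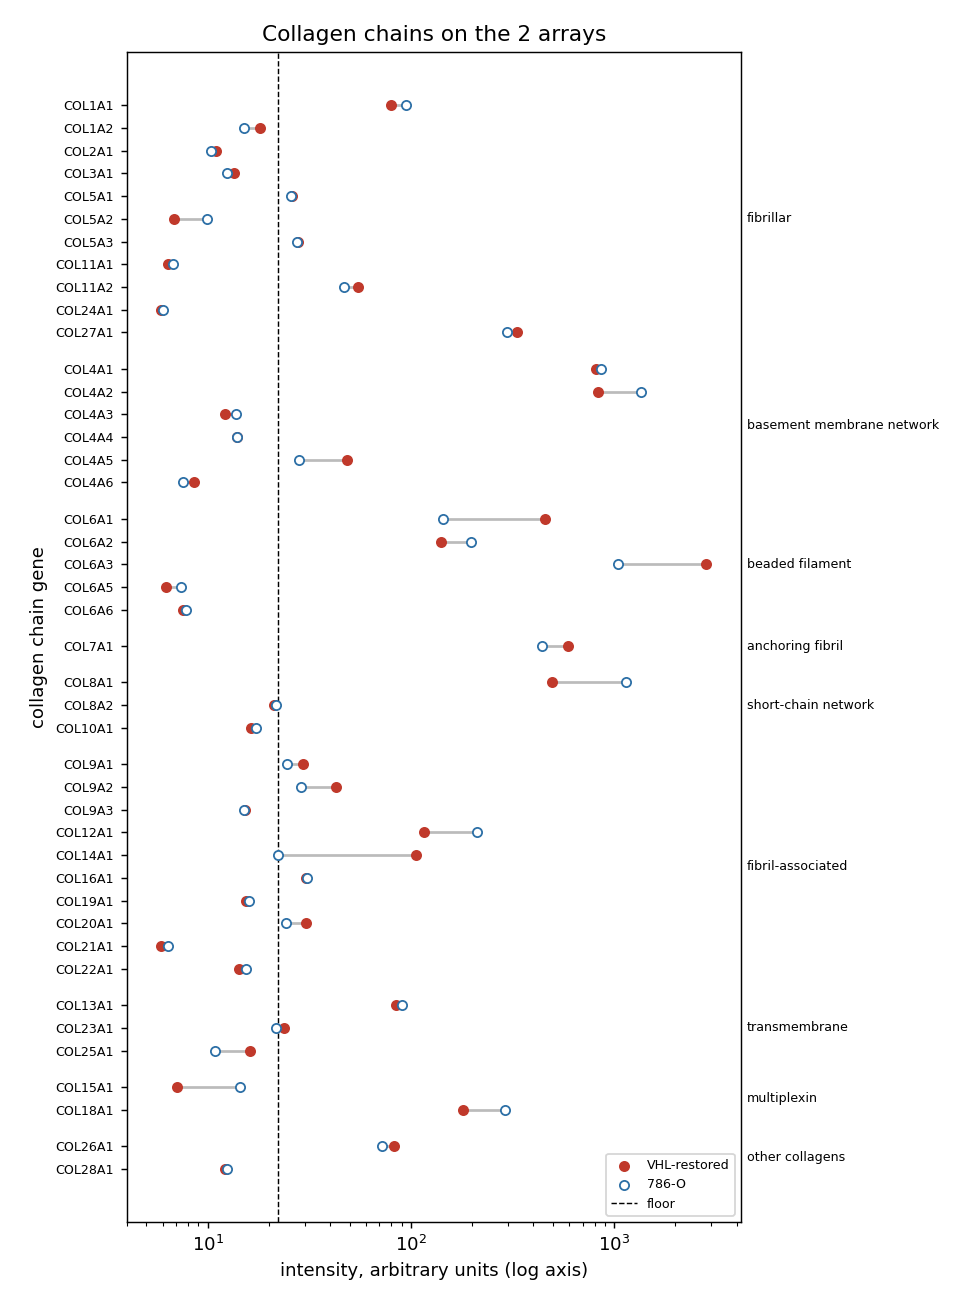
Intensity of the 43 collagen chains (log axis, arbitrary units) on the array of the VHL-restored line (filled points) and the 786-O array (open points), by class, with the floor of 22.3 as a dashed line. COL6A3 lies at 2815 in VHL-restored cells and 1042 in 786-O, COL8A1 at 493 in VHL-restored cells and 1143 in 786-O, and 20 chains lie left of the line on both arrays.

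Type VI collagen held the widest disagreement among its chains. COL6A3, the long chain of the type VI trimer, gave 2815 in VHL-restored cells and 1042 in 786-O on its only probe set, 2.68-fold higher with a difference of 1.42. It ranked number 84 from the highest among the 13291 measured genes. The array of the VHL-restored line was thus the higher by far, on values well above the floor, but with no second probe set to set beside it. COL6A2, another chain of that trimer, went the other way, at 141 in VHL-restored cells and 196 in 786-O, a difference of -0.44, and its second probe set gave 76.4 in VHL-restored cells and 81.1 in 786-O, a difference of -0.07. COL6A5 and COL6A6, chains related to COL6A3, were below the floor on both arrays.

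COL6A1, which pairs with COL6A2 and COL6A3, depended on the probe set. The one used gave 458 in VHL-restored cells and 143 in 786-O, 2.98-fold higher with a difference of 1.57, and ranked number 60 from the highest. The 4 other probe sets above the floor gave 58.4 in VHL-restored cells and 33.4 in 786-O, 66.5 and 60.0, 27.7 and 25.8, and 31.4 and 41.8, in the same order of arrays. Their differences were 0.59, 0.12, 0.06 and -0.29, and the median over all 5 was 0.12, so the 2-fold difference of COL6A1 was carried by a single probe set. The remaining 3 of its 8 probe sets were below the floor. Probe sets with the ending _s_at, which include the one used, can match more than 1 transcript, and whether this bears on COL6A1 was not tested.

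**Figure D2:**
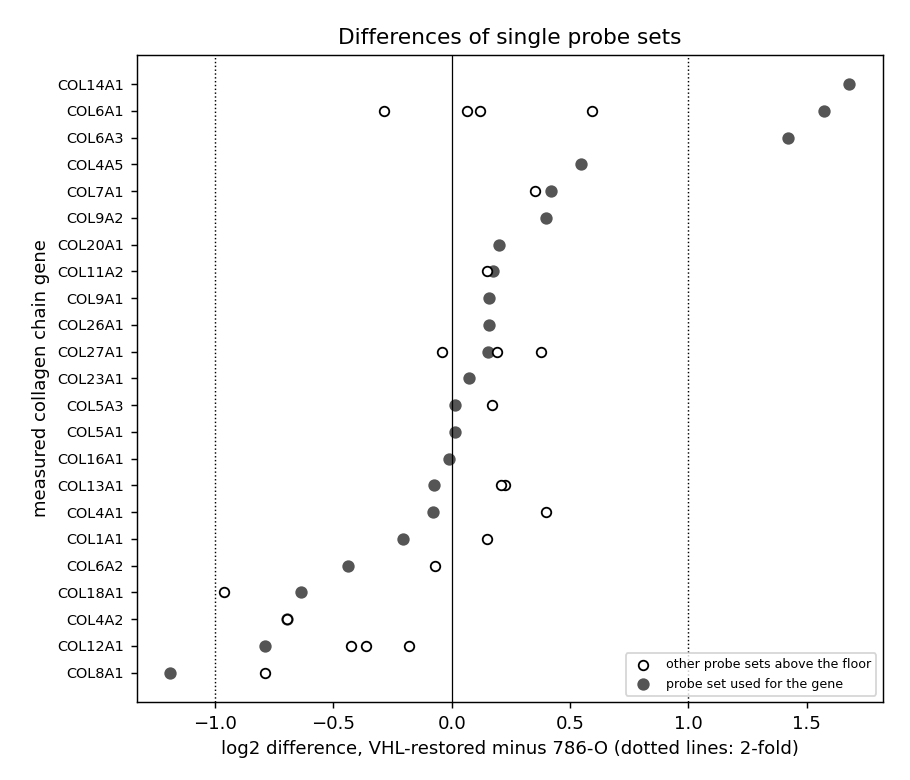
Log2 difference, VHL-restored minus 786-O, of each probe set above the floor for the 23 measured chains; filled points are the probe set used for the gene, open points the others, dotted lines 2-fold. COL6A1 spreads from -0.29 to 1.57, whereas both COL4A2 probe sets lie at -0.70.

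The type IV chains of basement membranes differed unequally although both lie at the shared start region shown above. COL4A2 gave 829 in VHL-restored cells and 1355 in 786-O on the probe set used, and 194 in VHL-restored cells and 325 in 786-O on the other. Both probe sets gave a difference of -0.70, or 1.62-fold lower in VHL-restored cells. COL4A1, its partner in the common type IV trimer, gave 810 in VHL-restored cells and 858 in 786-O, a difference of -0.08, and 433 in VHL-restored cells and 324 in 786-O on its second probe set, a difference of 0.40. COL4A1 was thus without a settled direction, and both its differences lay above those of COL4A2. COL4A5, a chain of the mature kidney basement membrane, gave 48.7 in VHL-restored cells and 28.3 in 786-O, a difference of 0.55 on its only probe set above the floor. Its partners COL4A3 and COL4A4 were below the floor on both arrays, as was COL4A6, and none of the 3 is given a fold.

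COL8A1 encodes a short-chain, network-forming collagen of vessel walls and of the corneal endothelial membrane. It gave 493 in VHL-restored cells and 1143 in 786-O, 2.28-fold lower with a difference of -1.19, and ranked number 175 from the lowest among the measured genes. Its dimmer probe set gave 28.3 in VHL-restored cells and 60.4 in 786-O, a difference of -0.79, so both probe sets above the floor were lower in VHL-restored cells. The third was below the floor, as were COL8A2, its partner chain, and COL10A1, the related collagen of growth cartilage.

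Fibril-associated collagens, which sit on the surface of fibrils, went both ways. COL14A1 gave 106 in VHL-restored cells and 22.27 in 786-O, just under the floor, and was at least 3.20-fold higher in VHL-restored cells with the 786-O array set to the floor. It was measured through the array of VHL-restored cells alone, so no rank is given. Its 3 other probe sets were below the floor on both arrays, the brighter 2 giving 20.3 in VHL-restored cells and 14.8 in 786-O, and 18.01 in VHL-restored cells and 13.99 in 786-O. COL12A1, its close relative, gave 116 in VHL-restored cells and 211 in 786-O, 1.73-fold lower with a difference of -0.79. Its other 3 probe sets above the floor had differences of -0.43, -0.36 and -0.18, so all 4 were lower, the dimmer ones by less.

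The other fibril-associated chains were dim. COL9A2, of cartilage type IX collagen, gave 43.0 in VHL-restored cells and 28.7 in 786-O, a difference of 0.40, and COL9A1 gave 29.3 in VHL-restored cells and 24.6 in 786-O, a difference of 0.16. COL20A1 gave 30.3 in VHL-restored cells and 24.3 in 786-O, and COL16A1 gave 30.4 in VHL-restored cells and 30.8 in 786-O. COL9A2 apart, these differences were smaller than the SD between probe sets. COL9A3, COL19A1, COL21A1 and COL22A1 were below the floor on both arrays.

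COL18A1, a multiplexin of basement membranes whose tail is released as the angiogenesis inhibitor endostatin, was lower in VHL-restored cells on both probe sets. The one used gave 181 in VHL-restored cells and 290 in 786-O, 1.55-fold lower with a difference of -0.63, and the other gave 83.3 in VHL-restored cells and 177 in 786-O, a difference of -0.96. COL15A1, the related multiplexin, was below the floor at 7.06 in VHL-restored cells and 14.4 in 786-O. COL7A1, which forms the anchoring fibrils that tie epithelium to the matrix beneath, gave 595 in VHL-restored cells and 441 in 786-O, a difference of 0.42, and its other probe set differed by 0.35.

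Fibrillar collagens, the bulk of the matrix made by fibroblasts, were largely at or below the floor. COL1A1, the main chain of type I, gave 79.9 in VHL-restored cells and 94.8 in 786-O on the probe set used, but 71.4 in VHL-restored cells and 62.7 in 786-O on another, and 3 of its 5 probe sets lay below the floor on both arrays. Its differences of -0.21 and 0.15 had opposite signs. COL1A2, the partner of COL1A1, and COL3A1, the type III chain, were below the floor on both arrays, as were COL2A1, COL5A2, COL11A1 and COL24A1. COL27A1, a fibrillar chain of developing cartilage, gave 332 in VHL-restored cells and 297 in 786-O, and its 4 probe sets above the floor differed by -0.04 to 0.38. COL11A2, a minor fibril chain of cartilage, gave 55.0 in VHL-restored cells and 46.9 in 786-O. COL5A1 and COL5A3, chains of the type V collagen that seeds fibrils, gave 26.05 and 27.85 in VHL-restored cells and 25.65 and 27.38 in 786-O. None of the 5 measured fibrillar chains was 1.5-fold apart, and their differences ran from -0.21 to 0.17.

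The transmembrane chain COL13A1 gave 84.7 in VHL-restored cells and 90.2 in 786-O, a difference of -0.08, while its other 2 probe sets differed by 0.21 and 0.23. COL23A1, also transmembrane, gave 23.8 in VHL-restored cells and 21.8 in 786-O, just under the floor. It was measured through the array of VHL-restored cells alone, so its direction followed from the filter. COL25A1 was below the floor on both. COL26A1 gave 82.1 in VHL-restored cells and 72.1 in 786-O, but its other probe set was below the floor on both arrays. COL28A1 was below the floor on both. Across the 13 chains with several probe sets above the floor, the probe sets of 8 all went 1 way, and those of COL1A1, COL4A1, COL6A1, COL13A1 and COL27A1 did not. Apart from COL12A1, the 8 had only 2 such probe sets each. The share of all genes whose probe sets went 1 way was not computed.

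**Figure D3:**
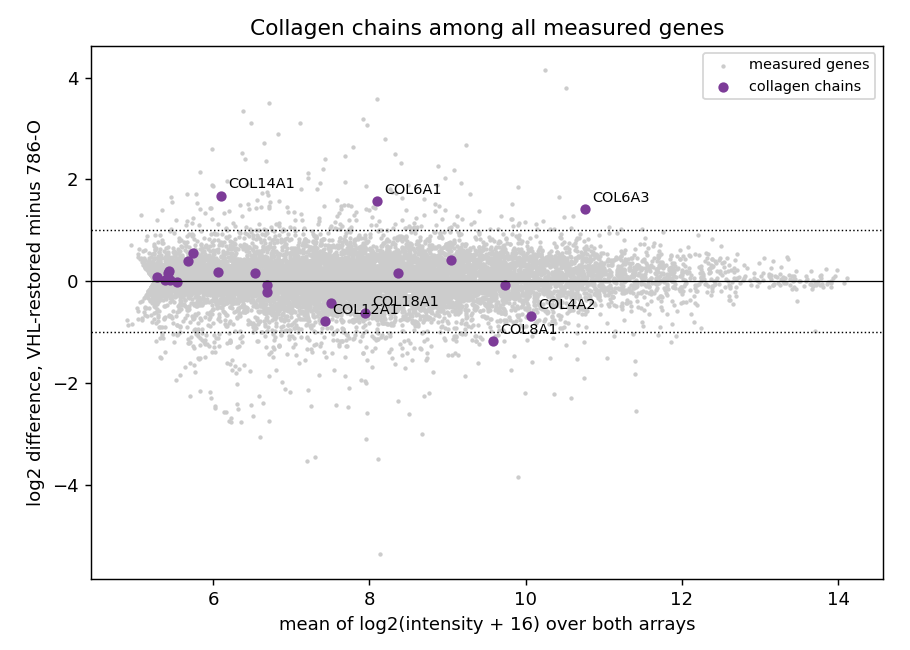
Log2 difference, VHL-restored minus 786-O, against the mean of log2(intensity + 16) for 13291 measured genes (grey) and the 23 measured collagen chains (purple); chains at least 1.5-fold apart are named and dotted lines mark 2-fold. COL6A3 at 1.42 and COL8A1 at -1.19 lie outside those lines at high intensity, and the 16 unnamed chains lie from -0.44 to 0.55.

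Genes next to these chains on the chromosome had median differences from -0.10 to 0.40, beside a median of 0.05 over all measured genes. For each chain the measured genes next to it were taken, 15 on each side where the chromosome allowed, with the RefSeq annotation used for gene order only. The 30 neighbours of COL6A3 had a median difference of 0.02, those of COL8A1 0.03, those of COL12A1 0.02, those of COL14A1 0.14 and those shared by COL4A1 and COL4A2 0.11. The 25 neighbours of COL6A1 and the 27 of COL18A1 had a median of -0.06. Next to COL7A1, 28 of 30 neighbours were higher in VHL-restored cells with a median of 0.40, close to the 0.42 of COL7A1 itself, beside 56.8% higher over all measured genes. Higher were also 27 of 30 next to COL16A1, 25 of 30 next to COL20A1 and 24 of 30 next to COL9A2, with medians of 0.21, 0.11 and 0.19, and the medians for the 22 chains other than COL7A1 ran from -0.10 to 0.21. The part of that region in the COL7A1 difference was not tested.

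The other genes of the collagen pathway were taken from 7 lists of 73 genes, of which 60 were measured. At least 2-fold apart were 3 of the 60, with a median of 0.06, beside 3.72% and a median of 0.05 for all measured genes. One of the 3, LUM, was against a value below the floor. With such values set to the floor 2 remained, both lower in VHL-restored cells, beside 3.56% of all measured genes at least 2-fold apart and 2.08% at least 2-fold lower. Of the 60 genes 36 were higher (60.0%), beside the 56.8% of all measured genes. Both of the lower ones were cross-linking enzymes. LOX, the founding lysyl oxidase, gave 7.44 in VHL-restored cells, below the floor, and 74.0 in 786-O, so it was at least 2.35-fold lower. All 3 of its probe sets passed the floor through the 786-O array alone, so their shared direction followed from the filter. LOXL1, a relative that acts mainly on elastin, gave 224 in VHL-restored cells and 541 in 786-O, 2.32-fold lower on its only probe set. All 6 measured members of that list were lower, beside 41.8% of all measured genes. That count includes LOX, whose direction followed from the filter. TGM2, a transglutaminase, was at -0.52 and LOXL3 at -0.12. However, LOXL2 at -0.01 and LOXL4 at -0.03 were next to 0 (named after their values were seen).

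Enzymes that modify the chains were all measured, 13 of the 13 with a probe set, and none was 2-fold apart on the probe set used. COLGALT1, a galactosyltransferase for hydroxylysine, differed by -0.19 on that probe set and by -1.10 on its other one (named after its values were seen). Of the 13 enzymes 8 were higher (61.5%) and 5 lower in VHL-restored cells, beside 56.8% higher over all measured genes, with a median of 0.20. PLOD1, a lysyl hydroxylase, gave 442 in VHL-restored cells and 233 in 786-O, a difference of 0.88 on its only probe set. P3H2, a prolyl 3-hydroxylase that acts on type IV collagen, gave 973 in VHL-restored cells and 550 in 786-O, a difference of 0.80, but 0.08 on its other probe set. PLOD2, the lysyl hydroxylase of the collagen ends, was lower in VHL-restored cells by both probe sets, at 1209 in VHL-restored cells and 1826 in 786-O with a difference of -0.59, whereas P4HA1, a prolyl 4-hydroxylase subunit, was higher at 822 in VHL-restored cells and 591 in 786-O with a difference of 0.46. PLOD2 and P4HA1, both known HIF targets, were named after their values were seen.

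Folding and export genes were also all measured, 13 of 13, with none 2-fold apart on the probe set used and a median of 0.10. Of these 9 were higher (69.2%) and 4 lower, beside 56.8% higher over all measured genes. FKBP10, a chaperone of procollagen, gave 50.4 in VHL-restored cells and 113 in 786-O, a difference of -0.96 on its only probe set, and KLHL12, which enlarges the vesicles that carry procollagen, gave 604 in VHL-restored cells and 424 in 786-O, a difference of 0.49. Of 8 measured processing genes 6 were higher (75%), beside the same 56.8%. PCOLCE, an enhancer of procollagen trimming, had the largest difference, 0.56, at 41.0 in VHL-restored cells and 22.8 in 786-O, close to the floor. BMP1, the protease that it enhances, differed by 0.55, and its 6 probe sets above the floor by 0.10 to 0.65. The median of that list was 0.18.

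Collagen receptors showed small differences, 4 of 5 measured members being higher (80%), beside 56.8% of all measured genes, with a median of 0.13. ITGB1, the common beta integrin, gave 5628 in VHL-restored cells and 6874 in 786-O, a difference of -0.29, and ITGA2, its collagen-binding partner, differed by 0.21 on 1 probe set and -0.18 on another. Among 8 measured genes of breakdown and uptake 4 were higher (50%, beside the same 56.8%) and 4 lower. Their median was -0.20, and none was 2-fold apart on the probe set used. CTSB, the lysosomal protease cathepsin B, gave 603 in VHL-restored cells and 1058 in 786-O, a difference of -0.79, and its 5 probe sets were all lower, from -2.06 to -0.79. PEPD, which splits proline dipeptides left from collagen, gave 291 in VHL-restored cells and 455 in 786-O, a difference of -0.62 on its only probe set. MMP14, a collagenase at the cell surface, named after its values were seen, differed by -0.62, with 4 probe sets from -1.57 to -0.60.

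Proteoglycans and other binders of collagen differed little apart from LUM. LUM, the fibril-spacing proteoglycan lumican, gave 37.1 in VHL-restored cells and 5.64 in 786-O, below the floor, and was at least 1.39-fold higher. FMOD, its relative fibromodulin, differed by 0.11, and FN1, which encodes fibronectin, by -0.08 at 8896 in VHL-restored cells and 9394 in 786-O, with probe sets from -0.41 to 0.38. The median of the 7 measured members was 0.03.

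**Figure D4:**
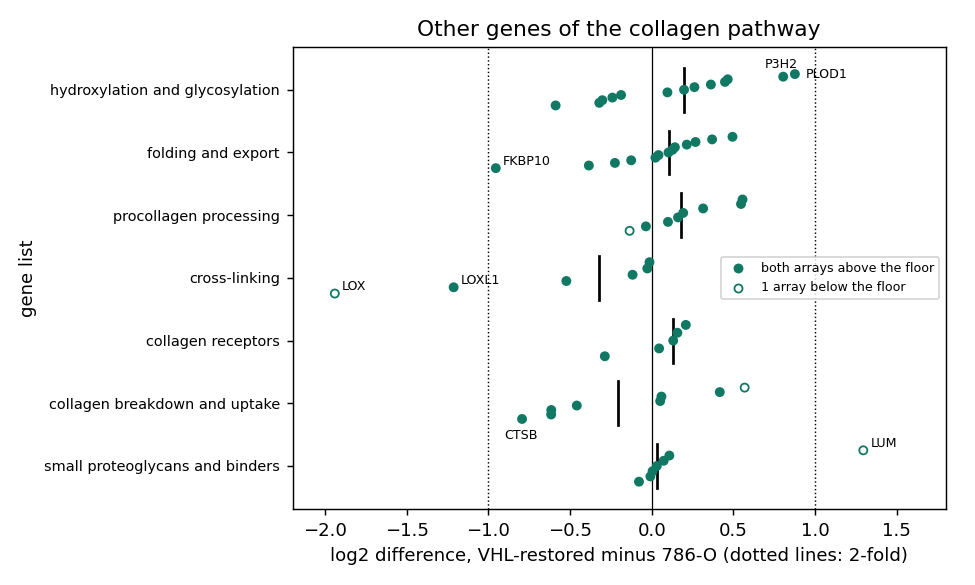
Log2 difference, VHL-restored minus 786-O, of 60 measured genes in 7 lists of the collagen pathway; points are genes, open where 1 array was below the floor, so that their place depends on the dim value, black bars list medians and dotted lines 2-fold. All 6 cross-linking genes lie left of 0, with LOXL1 at -1.21, but LOX passed the floor through the 786-O array alone. The open points include LOX and LUM, which were at least 2.35-fold lower and at least 1.39-fold higher.

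The processing moved some chains more than others. COL6A3 stayed at least 2-fold higher under all 8 other settings of normalization, floor, probe set and pseudocount, each of which keeps its only probe set. COL8A1 was at least 2-fold lower under 7 of the 8 and was at -0.79 with the median over its probe sets, dim ones included. The settings of the floor alone could not move the value of a measured chain. COL6A1 was at 0.09 with the median over probe sets and at -0.29 when the _s_at, _x_at and _a_at probe sets were dropped. COL14A1 was at 0.98 with a pseudocount of 64 and not measured under the settings that took a higher floor, the median over probe sets or no such endings.

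**Figure D5:**
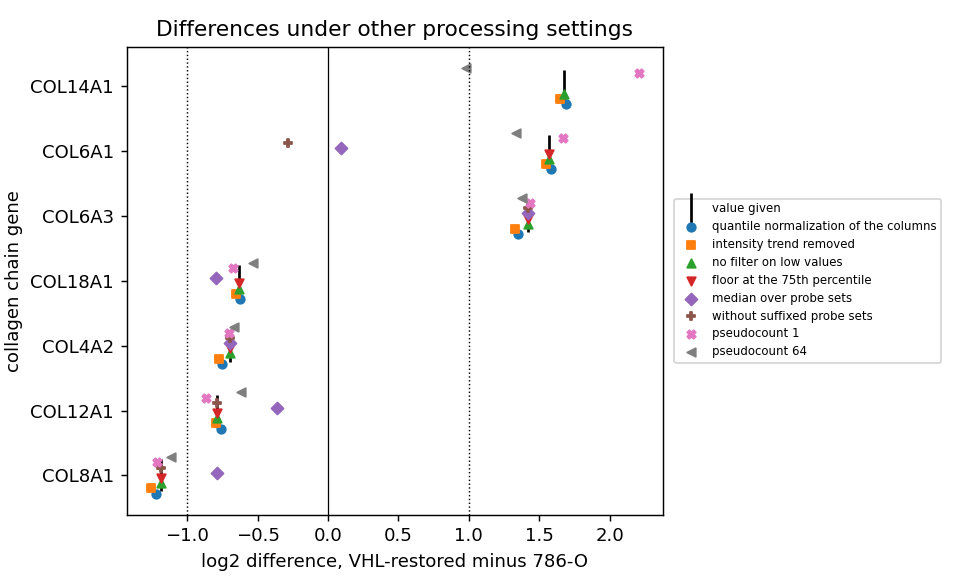
Log2 difference, VHL-restored minus 786-O, of the 7 chains at least 1.5-fold apart under 8 other processing settings (coloured marks) and as given in the text (black bars); dotted lines mark 2-fold. The marks of COL6A3 and COL4A2 stay close to their bars, and COL6A1 reaches -0.29.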

How the data were processed

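The authors deposited 1 linear-scale intensity for each probe set on each array, from VHL-restored cells and from 786-O cells. The submitters' processing notes name R 2.10 alone. Steps of background correction, normalization and probe summary are unknown and could compress or shift differences. GEO's platform annotation gave 41091 of 54613 probe sets a single gene, gave 1801 several and left 11721 unnamed here, and 41037 of the former took a current symbol by Entrez number. From the deposited intensities, log2 values (pseudocount 16), gene values and medians were computed in Python 3.11.15 with pandas 2.3.3, numpy 2.4.6 and statsmodels 0.14.6, drawn with matplotlib 3.10.9, and the procedure was tested on simulated data. The simulation gave each gene a single probe set and planted changes in bright genes only. It tested neither the choice of probe set nor changes in dim genes. The alternatives tried were pseudocounts of 1 and 64, quantile normalization, removing the trend with intensity, no floor or a floor at percentile 75, medians over a gene's probe sets, leaving out suffixed probe sets, and a 1.5-fold threshold. The chains and lists were chosen with earlier results of these data known. Every measured chain is named with both values; each pathway list gives its members at least 2-fold apart and up to 2 more with the largest difference.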

Additional observations from a re-analysis of the deposited data

How the results depend on the processing

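Of 158 values of measured chains under other settings, 151 moved by less than the SD between probe sets and 7 by more. The 23 values without a floor and the 10 with the floor at percentile 75 could not move, because only the filter changed. Nor could chains move where dropping or pooling probe sets left the same one in use. The sign changed in 7 of the 158, over 5 chains: COL6A1 was at -0.29 without suffixed probe sets, COL4A1 at 0.16 and COL13A1 at 0.21 with the median over probe sets, and COL5A1 and COL5A3, both within 0.02 of 0 as given, fell below 0 under quantile normalization and trend removal. The number of chains at least 2-fold apart was 1 (1 higher, 0 lower) with the median over probe sets, 2 (1 higher) without suffixed probe sets, and 7 (4 lower) at 1.5-fold, against 4 (3 higher, 1 lower); it was 3 or 4 under the others. The median of all chains was -0.26 when the floor was raised to percentile 75, which 10 chains passed. That floor also gave -0.39 for basement membrane chains, -0.79 for fibril-associated chains, -0.52 for cross-linking, -0.29 for receptors and -0.54 for breakdown and uptake. Without a filter the medians were -0.014 for beaded filament, -0.048 for short-chain, -5.01e-05 for fibril-associated chains and -0.021 for breakdown and uptake. The median over probe sets gave 0.16 for basement membrane, 0.094 for beaded filament and -0.013 for fibril-associated chains. Without suffixed probe sets the medians were -0.39 for basement membrane, -0.072 for beaded filament, -0.020 for folding and export and -0.54 for breakdown and uptake. Of 146 values of named pathway genes 10 moved by more than that SD and 1 changed sign, FN1 at 0.38 without suffixed probe sets. Those without a floor or with the higher floor again could not move. The number of pathway genes at least 2-fold apart was 1, against 3, with the floor at percentile 75, without suffixed probe sets and with a pseudocount of 64, under which LOX was at -0.95. Breakdown and uptake gained 1 with the median over probe sets, CTSB at -1.13. The settings of the floor and of the probe sets change which genes or probe sets enter. Pseudocounts, quantile normalization and trend removal change the values themselves, and the 1.5-fold threshold changes only the counts. Other causes were not tested. No paired analysis was possible because there was 1 array for each line; leaving out a replicate was likewise not possible. Dim signal limits the 20 chains below the floor, for which no direction is given.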
